A study of Homo sapiens with 6 samples.

Results

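The MYC, MAX and MXD network is a set of transcription factors that bind DNA only as pairs. MYC, MYCN and MYCL each pair with MAX and recruit coactivators to a short DNA element called the E-box. The antagonists MXD1, MXI1, MXD3, MXD4 and MNT compete for MAX and bring SIN3 and histone deacetylases to the same element, and MLX serves some of the antagonists and the Mondo proteins as an alternative partner. In epithelia, high MYC is a feature of dividing cells, and some of the MXD proteins, MXD1 above all, of cells that stop dividing. The 10 network genes were chosen by name from the 61228 gene names of the deposited tables, and all 10 were among the 15373 genes that passed the filter on low counts.

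The libraries came from HBE cells (HBECs), an immortalized line of human bronchial epithelial cells labelled as WT. One group of 3 libraries was treated with CRE, a cockroach extract used as an airway allergen. The other group of 3 libraries, CRE + VAF347, received the same extract after VAF347, an agonist of the aryl hydrocarbon receptor (AhR), a transcription factor that senses small molecules. Treatment lasted 24 h in both groups, so every library here was exposed to CRE, and cells with VAF347 alone or with no treatment were not analysed here. The labels do not say whether libraries of a group came from separate cultures, so p-values measure only the spread between these samples, which may be technical. The comparison asks whether the partners and antagonists of MAX moved with *MYC* or against it when the AhR agonist was present.

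The libraries held 8873160 to 10750283 counts in all, and 1 count was worth 0.0930 to 0.113 CPM (counts scaled to a common library size). CRE replicate 3 stood apart from the other CRE libraries on the second principal component (17.3 against -14.1 and -11.7), so member values are also given without it. The AhR targets *CYP1A1*, *CYP1B1*, *TIPARP* and *AHRR* were 4 of 4 called higher with VAF347, by fitted log2 fold changes of 6.202, 3.14, 2.24 and 2.16, which checks the labels. Of 9 epithelial markers 8 were above 3 counts in every library, led by the keratin *KRT8*, with a summed TPM (the deposited level scaled for transcript length and library size) of 4498 to 5422 with CRE and 4482 to 4635 with VAF347. The basal cell factor *TP63* reached at most 1 count, and 3 of 5 markers of differentiated airway cells were at 0, with *FOXJ1* the highest at up to 0.856 TPM. Above 3 counts in every library were 1 of 5 fibroblast markers, 2 of 5 leukocyte markers and 3 of 4 endothelial markers. The fibroblast genes *DCN*, *LUM* and *PDGFRA* were at 0 in every library, and *PTPRC* and *PECAM1* reached at most 2 and 3 counts. Fibroblast markers, mostly *COL1A1*, summed to 17.97 to 20.2 TPM with CRE and 14.5 to 17.9 with VAF347, leukocyte markers, mostly *CD68*, to 24.7 to 28.3 and 17.0 to 22.6, and endothelial markers, mostly *CDH5*, to 9.41 to 10.4 and 6.03 to 7.46. All 3 sums were lower with VAF347, as *MYC* was. Of the endothelial markers *CDH5* and *VWF* were themselves called, both lower in TPM with VAF347. *KDR* overlapped, at 1.88 to 2.45 TPM with CRE and 1.89 to 2.79 with VAF347. The part of these markers in the results below was not tested. In bulk libraries such as these, fewer cells of one kind and less RNA per cell cannot be told apart.

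The E-box is the element through which the network acts, and it was present in the upstream sequence of some of the members themselves. RefSeq sequences (GRCh38.p14) of the 250 bases before the RefSeq start were on hand for 9 of the 10 genes, in 12 windows. The gene without a sequence was *MYC*, so its own upstream sequence was not searched for the E-box or the AhR core. The letters CACGTG, which read the same on both strands, occurred in 3 windows (25.0%) against 6.35% of 35116 windows of all genes. They lay upstream of *MXD4*, *MNT* and *MLX*, an antagonist of MYC, a broadly expressed antagonist, and the alternative partner. Each is shown 5′ to 3′ on its own strand with the E-box in capitals. Up to 30 bases are given on each side, fewer where the window or the annotated gene begins. The *MXD4* stretch is chr4:2262312-2262359 on the minus strand, the *MNT* stretch chr17:2401218-2401283 on the minus strand, and the *MLX* stretch chr17:42567020-42567071 on the plus strand.
MXD4: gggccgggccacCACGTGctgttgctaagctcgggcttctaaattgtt
MNT: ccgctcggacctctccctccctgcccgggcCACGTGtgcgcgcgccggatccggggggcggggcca
MLX: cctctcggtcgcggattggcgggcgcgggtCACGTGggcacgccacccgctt
The E-box begins 238 bases before the RefSeq start of *MXD4*, 193 bases before that of *MNT* and 50 bases before that of *MLX*. Only the *MLX* stretch was cut at the annotated start of GENCODE v44. The *MXD4* stretch begins where its window of 250 bases begins, and the *MNT* stretch was not cut. For *MNT* and *MLX* the annotated starts lie upstream of the RefSeq starts, so their E-boxes are nearer to the annotated start than these distances. The AhR core letters GCGTG, searched on both strands, occurred in 4 of the 12 windows (33.3%), those of *MXD3*, *MLX* and 2 windows of *MXI1*, against 32.2% of all windows. In the *MLX* window the core begins 42 bases before the RefSeq start and shares no base with the E-box. These are matches of letters in 1 window per start, and binding was not measured in these libraries.

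*MYC* was the member that fell when VAF347 was present, and the other 9 did not pass the threshold in either direction. A gene was called when its adjusted p in edgeR's quasi-likelihood test was under 0.05 and its absolute log2 fold change (CRE + VAF347 over CRE) over 0.5. By that rule 1 of 10 members was called, beside 340 of 15373 genes tested (2.21%), of which 263 were lower (1.71%) and 77 higher (0.501%). At any fold change the adjusted p of 1 member was under 0.05, against 833 genes or 5.42% of those tested. Of the 10 members 7 had a negative log2 fold change and 3 a positive one, and their median was -0.11 against 0.01 over all genes tested.

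*MYC*, the proto-oncogene that drives growth and ribosome production, lies at chr8:127735434-127742951 on the plus strand. Counts of *MYC* were 594, 605 and 706 with CRE and 341, 291 and 290 with VAF347. Every VAF347 library lay below every CRE library, and CRE + VAF347 replicate 1 was the highest of its group. Per length, the same gene had 41.1, 39.8 and 45.02 TPM with CRE and 22.8, 18.1 and 17.5 TPM with VAF347. The fitted level with VAF347 was 0.522 times that with CRE, a log2 fold change of -0.94 with a 95% interval from -1.16 to -0.72 and an adjusted p of 0.000432 in edgeR's quasi-likelihood test. The fit that left out CRE replicate 3 gave -0.89 (adjusted p = 1.58e-05 in the same test). The study singled *MYC* out from these libraries, so its change is the starting point of the comparison and not independent evidence.

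The remaining MYC family genes were scarce. *MYCN*, best known from the developing nervous system and neuroblastoma, lies at chr2:15940550-15947007. It had 13, 16 and 11 counts with CRE and 7, 2 and 3 with VAF347. All libraries of the second group were below the first, but 2 of them held no more than 3 counts, which is the level a count of 0 allows. Its log2 fold change was -1.60 (SE 0.46, 95% interval -2.61 to -0.59) and missed the threshold with an adjusted p of 0.0696 in edgeR's quasi-likelihood test. Leaving out CRE replicate 3, the value was -1.76 and the adjusted p 0.0484 in that test, so 2 members rather than 1 were then called.
*MYCL*, a family member with a weaker activating domain, lies at chr1:39895428-39902256. It had 56, 66 and 64 counts with CRE and 39, 34 and 59 with VAF347. The third VAF347 library reached into the range of the CRE libraries. The log2 fold change of *MYCL* was -0.39 (SE 0.19, 95% interval -0.82 to 0.03, adjusted p = 0.278 in edgeR's quasi-likelihood test). The interval reaches 0 at one end and stops short of the fitted -0.94 of *MYC* at the other. Leaving out CRE replicate 3 gave -0.41, and the value moved by over 1.5 times without CRE + VAF347 replicate 2, to -0.24, and without CRE + VAF347 replicate 3, to -0.62.

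**Figure D1:**
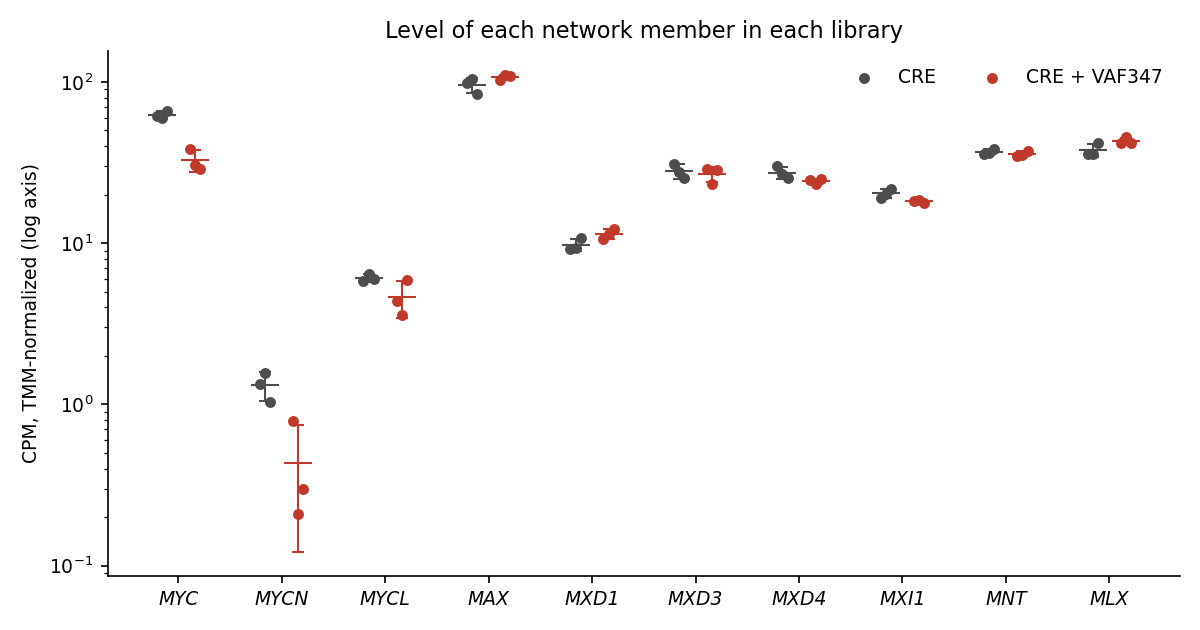
CPM after TMM normalization (log axis) of the 10 network genes in each library, 3 points for CRE in grey and 3 for CRE + VAF347 in red, with bars for the mean and SD. The groups are separate for *MYC*, *MYCN*, *MXD4*, *MXI1* and *MLX*, and the change of *MYC*, from 62.3 to 32.6 CPM, is the one that passed the threshold.

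*MAX*, the shared partner that every MYC protein needs, lies at chr14:65006174-65102695. It had 952, 1062 and 902 counts with CRE and 914, 1046 and 1090 with VAF347, and in CPM the groups overlapped. CRE replicate 3 was the lowest library of the 6 in CPM, at 84.3 against 98.6 to 110.0 in the other 5. The log2 fold change of *MAX* was 0.16 (SE 0.08) with a 95% interval from -0.01 to 0.34, so a fall of the size of that of *MYC* lies outside it (adjusted p = 0.266 in edgeR's quasi-likelihood test). Leaving out CRE replicate 3, the value was 0.08.
*FNTB*, a gene on the opposite strand that overlaps *MAX*, had 232 to 307 counts per library. Whether strand was used in counting was not given in the sources used here, so reads of the overlap could have been shared.

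None of the 5 antagonists was called by edgeR, DESeq2 or limma on TPM, beside 2.21% of all genes tested in edgeR. Of the 5, 0 had an unadjusted p under 0.05. The share of all genes at that p was not counted, so this 0 is not read as a result. *MXD1*, which is switched on as cells stop dividing and mature, had 89, 95 and 115 counts with CRE and 95, 109 and 122 with VAF347, in overlapping ranges. *MXD3*, an antagonist found in proliferating cells, had 301, 282 and 270 counts with CRE and 255, 222 and 285 with VAF347, also overlapping. *MNT*, the antagonist present in most cell types, had 345, 369 and 411 counts with CRE and 307, 336 and 375 with VAF347, and these too overlapped in CPM.
In 2 antagonists every VAF347 library lay below every CRE library in CPM. *MXD4* had 289, 273 and 272 counts with CRE and 218, 222 and 249 with VAF347. *MXI1*, whose loss has been studied in prostate cancer, had 183, 207 and 233 counts with CRE and 163, 176 and 177 with VAF347. The separation in both was narrow, with 25.4 CPM as the lowest CRE value and 24.8 as the highest VAF347 value of *MXD4*, and 18.9 and 18.5 CPM for *MXI1*.

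The fitted log2 fold changes of the antagonists ran from -0.17 for *MXD4* (95% interval -0.37 to 0.02) and -0.17 for *MXI1* (-0.37 to 0.04), through -0.06 for *MXD3* (-0.30 to 0.17) and -0.04 for *MNT* (-0.20 to 0.12), to 0.23 for *MXD1* (-0.04 to 0.49). Their adjusted p-values in edgeR's quasi-likelihood test ran from 0.293 to 0.794. The sign of the 2 values nearest 0 was not stable, since with an offset for GC content *MXD3* was at 0.03 and *MNT* at 0.05. *MXD3* was also at 0.02 without CRE replicate 1 and at 0.02 without CRE + VAF347 replicate 2. Leaving out CRE replicate 3, the values were -0.23 for *MXD4*, -0.11 for *MXI1*, -0.13 for *MXD3*, -0.01 for *MNT* and 0.30 for *MXD1*, and none was called. No antagonist interval reached -0.5 or 0.5, so none of the 5 matched the size of the *MYC* change in either direction.

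*MLX*, the partner that links the network to the glucose-sensing Mondo proteins, lies at chr17:42567072-42573239. It had 345, 364 and 445 counts with CRE and 371, 433 and 422 with VAF347. In CPM every VAF347 library was above every CRE library, by a margin of 41.7 against 41.6 CPM at the nearest pair, where CRE replicate 3 was the highest of its group. The log2 fold change of *MLX* was 0.19 (SE 0.08, 95% interval 0.01 to 0.37) with an adjusted p of 0.213 in edgeR's quasi-likelihood test. Leaving out CRE replicate 3 gave 0.27 with an adjusted p of 0.0374 in that test, still under the fold threshold. *PSMC3IP* overlaps *MLX* on the opposite strand and had 293 to 374 counts per library.

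Across the network, 5 of 10 members had groups that did not overlap in CPM, 4 lower with VAF347 and 1 higher, beside 27.3% of all genes tested. In TPM the groups of *MXD4*, *MXI1* and *MLX* did overlap, and those of *MYC* and *MYCN* did not. For 7 members, *MAX*, *MLX* and the 5 antagonists, the 95% interval lay wholly between -0.5 and 0.5. The intervals of *MYC* and *MYCN* lay below 0 and that of *MLX* above 0.

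**Figure D2:**
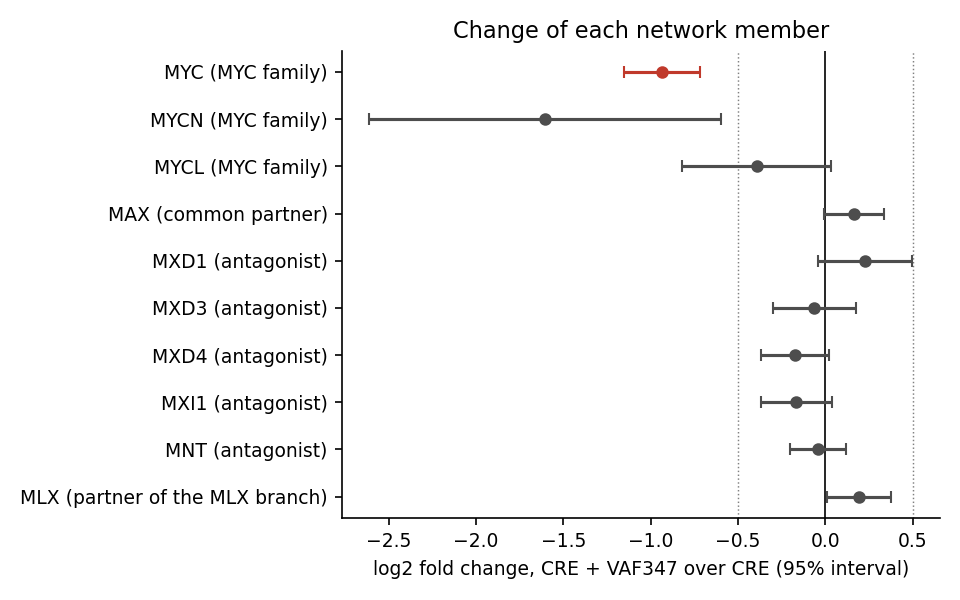
Fitted log2 fold change (CRE + VAF347 over CRE) of each network gene with its 95% interval, in red where it passed the threshold, with dotted lines at -0.5 and 0.5. *MYC* lies at -0.94 beyond the dotted line, *MYCN* and *MYCL* have the widest intervals, and the remaining 7 genes sit between the lines.

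Levels of different genes can be compared per length, in TPM. With CRE the order was *MAX* at 176 ± 29.95 TPM (SD, n = 3), *MYC* at 42.0 ± 2.72, *MXD3* at 32.8 ± 3.40, *MLX* at 30.3 ± 4.81, *MXI1* at 17.5 ± 3.39, *MNT* at 16.1 ± 1.45, *MXD4* at 11.7 ± 2.41, *MXD1* at 3.75 ± 0.583, *MYCL* at 2.73 ± 0.217 and *MYCN* at 0.750 ± 0.178. Neighbours in this order were separate in all 3 libraries except *MXD3* and *MLX*, and *MXI1* and *MNT*. With VAF347 *MYC* stood at 19.5 ± 2.87 TPM, below *MLX* at 35.0 ± 1.48 and *MXD3* at 29.0 ± 2.34, and *MAX* at 206 ± 29.8. *MYC* thus passed from the second place to the fourth, and the common partner stayed the most abundant transcript of the network in every library.

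The make-up of the MAX partners among the network members differed between the groups. *MGA*, which also pairs with MAX, is not a member and is left out of this pool. It held 21.3 ± 3.11 TPM (SD, n = 3) with CRE and 19.9 ± 2.36 with VAF347, so shares of all MAX partners would be lower. The sum of *MYC*, *MYCN* and *MYCL* was 43.2 to 48.9 TPM with CRE and 19.8 to 25.1 TPM with VAF347, while the sum of the 5 antagonists was 77.6 to 89.9 and 66.3 to 80.3 TPM, in overlapping ranges. The MYC family share of this pool was 36.2%, 35.8% and 35.2% in the CRE libraries and 23.8%, 23.0% and 21.6% with VAF347. The antagonists together held 1.95 ± 0.0512 times (SD, n = 3) the TPM of *MYC* with CRE and 3.81 ± 0.396 times with VAF347. *MAX* held 4.24 ± 0.967 and 10.83 ± 2.89 times the TPM of *MYC*. Within the MYC family itself *MYC* made up 92.3 ± 0.504% with CRE and 89.2 ± 3.47% with VAF347. These are shares of RNA, and protein levels and pairing were not measured in these libraries.

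**Figure D3:**
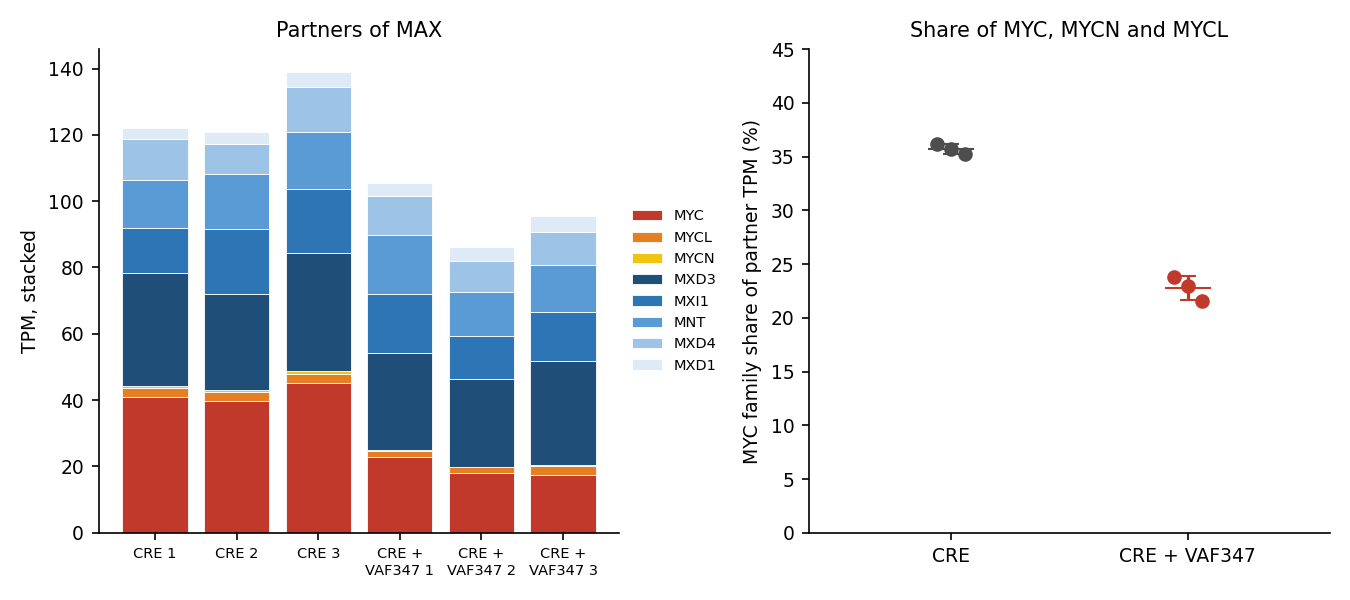
Left, stacked TPM of the 8 network members that pair with MAX in each library, without *MGA*, MYC family genes in red to yellow and antagonists in blues. Right, the MYC family share of that sum in percent, points for libraries and bars for mean and SD, 35.2 to 36.2% with CRE and 21.6 to 23.8% with VAF347.

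Whether a partner moved with *MYC* was asked within each library as the log2 ratio of the TPM of *MYC* to that of the partner. A gene that followed *MYC* would leave this ratio unchanged between groups. The ratio fell outside the CRE range in all VAF347 libraries for each of the 8 members with more than 3 counts in every library, *MYCN* being left out. For each of the 8 pairs the exact permutation test, two-sided over the 6 libraries, gave p = 0.1, the smallest that 3 against 3 allow, and 0.1 after Benjamini-Hochberg adjustment over the 8 pairs, so none could reach the threshold. All pairs share *MYC*, so they are not separate evidence.
The ratio of *MYC* to *MAX* was -2.06 ± 0.34 (SD, n = 3) with CRE and -3.40 ± 0.41 with VAF347, a difference of -1.34. For *MLX* the mean went from 0.48 to -0.85 and for *MXD1* from 3.49 to 2.21, differences of -1.33 and -1.28. These 3 are the members with a positive log2 fold change. *MNT*, *MXD4*, *MXD3* and *MXI1* gave differences of -1.002, -0.97, -0.94 and -0.92, nearer 0 than the change of *MYC* alone on the TPM scale, which was -1.11 in limma on log2(TPM + 0.1). The difference was smallest for *MYCL*, at -0.66 with a pooled SD of 0.33 (-0.39 without CRE + VAF347 replicate 3), the one partner whose own value lay on the side of *MYC* by more than 0.2. The ratio to *MXD3* turned from 0.27, 0.46 and 0.35 in the CRE libraries to -0.35, -0.55 and -0.83 with VAF347, so that *MYC* was the more abundant of the pair in all CRE libraries and the less abundant in all VAF347 libraries.

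**Figure D4:**
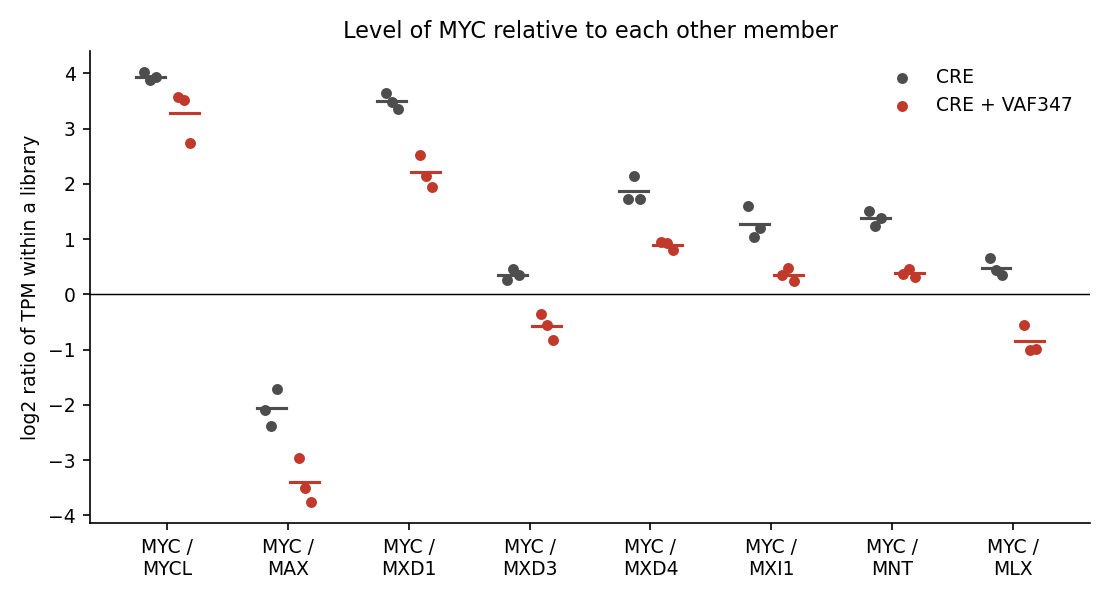
Log2 ratio of the TPM of *MYC* to that of 8 other members within each library, grey points for CRE and red for CRE + VAF347, with lines at the means. The red points lie below the grey in all 8 pairs, and the ratios to *MXD3* and *MLX* cross 0, where both genes of a pair are equal.

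TPM also depends on which transcripts the estimates favour. The effective length behind each value was taken as the ratio of count to TPM, relative to the median gene of each library. It ranged over 0.20 log2 units between libraries for *MYC*, beside a median of 0.17 over 11415 genes. Relative to the CRE mean, *MYC* was at -0.07, -0.06 and 0.12 with CRE and 0.13, 0.14 and 0.13 with VAF347. A greater length lowers TPM, so the ratios of *MYC* in TPM fell partly through length. The length ranged over 0.50 for *MXD4*, 0.47 for *MAX*, 0.47 for *MXI1* and 0.46 for *MNT*, near the 90th percentile of 0.49. In CPM, which does not use length, the differences in log2 ratio were -1.11 for *MAX*, -1.14 for *MLX* and -0.77 for *MXD4*.

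The network has other dimer partners. *MGA*, which pairs with MAX, *MLXIP* (MondoA) and *MLXIPL* (ChREBP), which pair with MLX, were measured at 715 to 957, 1245 to 1685 and 189 to 311 counts. Of these 3, 0 were called by edgeR or DESeq2, beside 2.21% of all genes tested in edgeR. *MLXIPL*, the carbohydrate response factor, had 240, 258 and 311 counts with CRE and 189, 191 and 191 with VAF347. In CPM its groups did not overlap, and its log2 fold change of -0.40 (SE 0.09, adjusted p = 0.0355 in edgeR's quasi-likelihood test) passed the p but not the fold threshold.
Among 8 tested factors outside the network that also read E-boxes, 1 was lower, beside 1.71% of all genes tested. *SREBF1*, the regulator of fatty acid synthesis genes, had 914, 907 and 1250 counts with CRE and 574, 595 and 616 with VAF347, a log2 fold change of -0.67 (SE 0.09, adjusted p = 0.00222 in the same test). *SREBF2*, its relative in cholesterol synthesis, was at -0.32, and the median of the 8 was -0.17. The call for *SREBF1* was lost in limma on log2(TPM + 1) for genes with a mean TPM of at least 1, at -0.60 (adjusted p = 0.0942).

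No listed cofactor or regulator of the network was called by edgeR, DESeq2 or the limma fits, beside 2.21% of all genes tested in edgeR. At that share lists of this length hold few or no calls, so 0 calls says little about these genes. The share of all genes at an unadjusted p under 0.05 was not counted. It was well above 0.05 itself, since *PPP2R5A* had an unadjusted p of 0.0469 and an adjusted p of 0.232 in edgeR's quasi-likelihood test. Counts at an unadjusted p under 0.05 are therefore not read as results about the lists. Of 14 MYC cofactors 0 were called and 2 had an unadjusted p under 0.05, with a median log2 fold change of -0.05, and the histone acetyltransferase gene *KAT2A* had the smallest p at -0.19 (adjusted p = 0.123, edgeR's quasi-likelihood test). Of 16 genes of the SIN3 and NCOR corepressors, through which the antagonists act, 0 were called, 3 had an unadjusted p under 0.05 and the median was 0.05. *SUDS3*, a SIN3 complex subunit, had 924, 1025 and 1110 counts with CRE and 1122, 1187 and 1205 with VAF347, and *ARID4A*, another, was at 0.29. Both passed an adjusted p of 0.05 in that test (0.0123 for *SUDS3* at a log2 fold change of 0.31, and 0.0355 for *ARID4A*) but not the fold threshold.
None of 17 genes for turnover of the MYC protein was called (median 0.02, 1 at an unadjusted p under 0.05), with *PPP2R5A*, a phosphatase subunit, at 0.14. None of 9 genes for proteins that bind *MYC* mRNA was called (median -0.07, 3 at an unadjusted p under 0.05), with *IGF2BP2*, an RNA-stabilizing factor, at -0.24 (adjusted p = 0.0618 in the test above). Of 5 noncoding RNAs beside MYC family genes only *PVT1*, the lncRNA next to *MYC*, passed the filter on low counts, with 207, 242 and 269 counts with CRE and 172, 192 and 193 with VAF347. Its log2 fold change was -0.26 (adjusted p = 0.136 in that test), which missed the threshold, and in CPM no library of one group reached the other.

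Most genes that MYC is known to activate did not pass the threshold. All 50 listed targets were tested, and 1 was called lower and 0 higher by edgeR, beside 1.71% and 0.501% of all genes. At an unadjusted p under 0.05 there were 8 lower and 3 higher. The share of all genes at that p was not counted but was well above 0.05, so these counts do not set the targets apart. DESeq2 and the limma fits on TPM called 0 of the 50. Their median log2 fold change was -0.05, against 0.01 over all genes, with 33 negative and 17 positive values. The 20 genes of ribosome production and the nucleolus held 0 calls, with 3 at an unadjusted p under 0.05, and a median of -0.05, and *BOP1*, needed to process ribosomal RNA, had the smallest p among them at -0.21 (adjusted p = 0.0939, edgeR's quasi-likelihood test).
Of 16 metabolic targets 0 were called and 6 had an unadjusted p under 0.05, 4 lower and 2 higher, with a median of -0.06. *CAD*, the first enzyme of pyrimidine synthesis, had 1580, 1712 and 1930 counts with CRE and 1190, 1301 and 1461 with VAF347, with no overlap in CPM, and a log2 fold change of -0.30 (SE 0.06, adjusted p = 0.0207 in that test). The folate carrier *SLC19A1* was at -0.33 (SE 0.08, adjusted p = 0.0302), so both passed the p but not the fold threshold. The 2 higher ones were *SLC2A1* at 0.17 and *ODC1* at 0.15 (adjusted p = 0.168 and 0.202 in that test).
Of 14 targets in translation, folding and growth 1 was lower. *EIF4E*, not called, was at 0.20 (adjusted p = 0.108 in that test). *TERT*, the catalytic subunit of telomerase, had 35, 52 and 40 counts with CRE and 20, 18 and 20 with VAF347, a log2 fold change of -1.02 (SE 0.23, adjusted p = 0.0265 in that test). In CPM no library of one group reached the other. In TPM the groups overlapped, at 1.90, 4.16 and 3.89 with CRE and 3.37, 2.71 and 0.452 with VAF347, and limma on log2(TPM + 1) gave -0.55 with an adjusted p of 0.696. The call for *TERT* was lost when CRE replicate 2 or any 1 of the 3 VAF347 libraries was left out, with adjusted p-values from 0.0741 to 0.116 in that test and values from -1.10 to -0.85, and DESeq2 gave *TERT* no adjusted p.

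Of 12 tested genes that MYC is known to repress, 3 were lower with VAF347 and 0 higher, beside 1.71% and 0.501% of all genes tested, and the median was -0.21. *CDKN2B*, the inhibitor p15 of cyclin-dependent kinases, had 971, 1031 and 1070 counts with CRE and 510, 549 and 489 with VAF347, a log2 fold change of -0.88 (SE 0.07, adjusted p = 7.78e-05 in edgeR's quasi-likelihood test). *THBS1*, the secreted matrix protein thrombospondin-1, had 12055, 12646 and 16551 counts and then 7877, 7958 and 7619, a log2 fold change of -0.70 (SE 0.09, adjusted p = 0.00144). The stress response gene *NDRG1* was at -0.56 (SE 0.09, adjusted p = 0.00369).
All 3 had groups that did not overlap in CPM. In limma on log2(TPM + 1) for genes with a mean TPM of at least 1, *CDKN2B* kept its call (adjusted p = 0.0136). *THBS1* and *NDRG1* lost theirs in that limma fit (adjusted p = 0.0644 and 0.123), and *CDKN2B* did in the unfiltered one (0.0771). *NDRG1* fell short of the fold threshold without CRE replicate 3, at -0.48, and without CRE + VAF347 replicate 3, at -0.50. Its relative *NDRG2*, at -0.44, and the DNA damage response gene *GADD45A*, at 0.49, passed an adjusted p of 0.05 in edgeR's quasi-likelihood test (0.0262 and 0.0268). They did so in opposite directions, and neither passed the fold threshold. Of 3 tested targets of MLX and MondoA 0 were called by edgeR or DESeq2, beside 2.21% of all genes tested in edgeR. At an unadjusted p under 0.05, a share not counted over all genes, there was 1. It was the arrestin-like gene *ARRDC4* at 0.41 (adjusted p = 0.0107 in that test), and the glucose-responsive *TXNIP* was at -0.08.

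**Figure D5:**
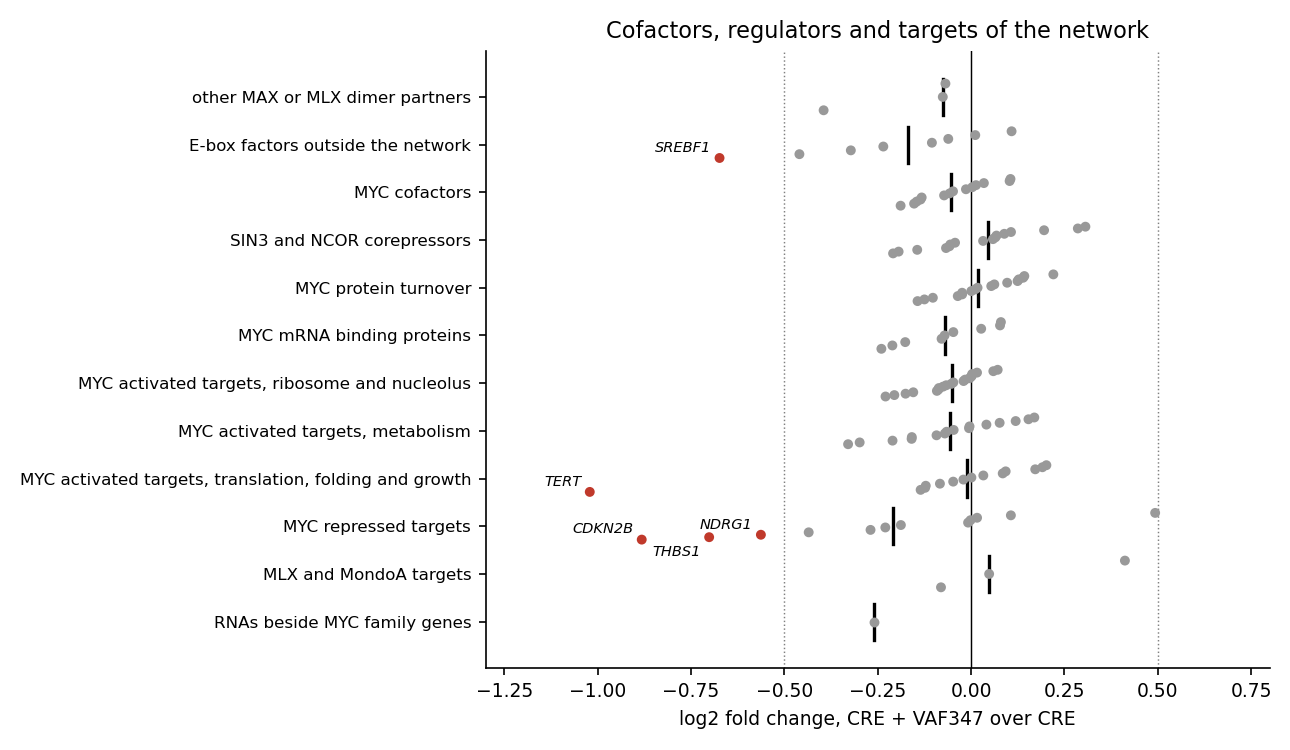
Log2 fold change (CRE + VAF347 over CRE) of every tested gene in 12 groups of cofactors, regulators and targets, with black bars for group medians, red points for genes that passed the threshold and dotted lines at -0.5 and 0.5. The 5 red points are *SREBF1*, *TERT*, *CDKN2B*, *THBS1* and *NDRG1*, all lower with VAF347, and the group medians lie between -0.26 and 0.05.

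Genes carrying the E-box letters upstream were close to the rest. The 1231 tested genes with CACGTG in the 250 bases before a start had a median log2 fold change of -0.01, and 1.54% were called lower and 0.244% higher. For the 9884 tested genes without it the median was 0.01 and the shares were 1.76% and 0.546%. The median transcript GC content was 50.8% in the first set and 49.7% in the second, and log2 fold changes in these libraries went with GC content, from a median of 0.10 among the tested genes lowest in GC to -0.09 among the highest, in 10 equal bins. With the GC offset *MYC* was at -0.90, and the median of the genes with the letters was -0.02.

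The genes whose profile over the 6 libraries was most like that of *MYC* were sought by the root mean square difference of log2 CPM, each gene centred on its own mean, among 11027 genes. They were *ACSM3*, an acyl-CoA synthetase gene, at 0.0581, *PTGIS*, prostacyclin synthase, at 0.0698, *TNC*, the matrix protein tenascin-C, at 0.0701, the transcription factor *OSR2* at 0.0791 and the developmental cofactor *EYA1* at 0.0800, against a median of 0.504. *TNC* had 7692, 7953 and 10032 counts with CRE and 4149, 3973 and 3730 with VAF347. All 5 were lower with VAF347, with log2 fold changes from -1.002 to -0.80, which the choice by likeness to *MYC* fixes. *MYCN* and *MYCL* lay under the level needed for this comparison, a mean log2 CPM of 3, and were left out of it. Among the members that were compared, *MXI1* and *MXD4* were the least far from *MYC*, at 0.410 and 0.416, and *MXD1* the farthest, at 0.613.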

How the data were processed

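Poly(A)-enriched RNA of 6 HBEC libraries was sequenced in the study as paired reads. The authors estimated expression with Salmon, and deposited expected counts per gene symbol with no scaling to depth. Their deposited TPM table, from the same estimates, sums to 1000000 per library. hg38 is named in the submitters' processing notes. The Salmon version, the annotation and the use of strand were not given in the sources used here. A further deposited table holds the authors' own comparison (mean normalized counts, log2 fold changes, Wald statistics and p-values) and was not used. Libraries were matched to groups from the sample labels, with 0 columns of per-sample values unmatched.

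Counts were rounded (14.5% were not whole) and fitted over the whole table with edgeR 4.0.16 under R 4.3.3 (filterByExpr, TMM, glmQLFit and glmQLFTest, group only) and Benjamini-Hochberg adjustment. The SE of a log2 fold change was taken from the fit's F statistic, and CPM used TMM library sizes. DESeq2 1.42.0, limma 3.58.1 on log2(TPM + 1) and log2(TPM + 0.1), other filters, a GC offset, a replicate block and leaving out each library were alternatives. The fits were tested on simulated counts. Positions and overlaps are from GENCODE v44, which held 61228 of 61228 gene names, and upstream sequences from RefSeq on GRCh38.p14.

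Named were all members, each gene of the other lists that passed the threshold or otherwise the one with the smallest p, and the 5 genes most like *MYC* among those with a mean log2 CPM of at least 3. *SREBF2*, *NDRG2*, *GADD45A*, *SLC19A1*, *SLC2A1*, *ODC1*, *EIF4E*, *ARID4A*, *TXNIP* and the overlapping genes were added after their values were seen. The members and lists were chosen with earlier results of these data known. Replicate numbers name libraries only, since nothing in the labels says that a number marks a shared culture or day. Lists were described by counts and medians, with no set test. Intervals and floors of 3 counts cover counting and replicate error only as far as 3 libraries per group show it.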

Additional observations from a re-analysis of the deposited data

How the results depend on the processing

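The log2 fold change of *MYC* kept its direction and its side of the threshold in 17 of 17 alternatives, from -1.11 to -0.86, with -1.07 to -0.86 over the fits that left out 1 library. With a replicate block it was -0.94 (adjusted p = 0.00128, edgeR's quasi-likelihood test), and the block changed the call of no member. Deviations of same-numbered libraries correlated at 0.08, 0.11 and 0.05, each library best with its own number. Those of differently numbered libraries correlated at -0.07 to -0.01. The labels do not say that a number marks a shared culture or day, so the main fit used no pairs, and whether the numbers mark pairs was not tested. Members called numbered 2 with no filter on low counts, where *MYCN* had an adjusted p of 0.0266 in that test, and 1 to 2 when 1 library was left out, the 2 arising without CRE replicate 3. DESeq2 gave *MYCN* no adjusted p. *MXD3* took the other sign in 4 of 17 alternatives and *MNT* in 2 of 17. Calls over all genes were 598 with no filter (411 lower, 187 higher), 833 at any fold change (626 and 207), 84 with limma on log2(TPM + 1) (50 and 34), 84 on log2(TPM + 0.1) (52 and 32) and 32 on log2(TPM + 1) unfiltered (12 and 20), against 340 (263 and 77), so the lower share was smaller on TPM. Leaving out 1 library gave 201 to 380 calls (143 to 270 lower, 58 to 110 higher), fewest without CRE + VAF347 replicate 3. Calls in the gene groups, 5 as reported, were 14 at any fold change, 1, 1 and 0 in the limma fits in the same order, and 3 to 6 when 1 library was left out. The difference in log2 ratio of *MYC* to *MXD4* was -0.77 in CPM against -0.97 in TPM. The cause of these moves was not tested. Depth limits *MYCN*, with 2 to 16 counts per library, and *TERT*, with 18 to 52.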
